A study of Arabidopsis thaliana with 12 samples.

Results

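The transcriptomes of *pifq* and wild-type (WT) seedlings were compared in darkness, to ask which genes other than the light-harvesting antenna genes differ when PIF1, PIF3, PIF4 and PIF5 are all mutated. The comparison rests on 6 of the 12 libraries of the series, 3 of *pifq* and 3 of WT, and on every locus with enough reads. The *pifq* seedlings carried mutations in 4 genes (*pif1pif3pif4pif5*), and WT was the Columbia-0 accession, the one the study worked in throughout. Both were whole seedlings harvested at 2 days. All had been given white light to induce germination and then a far-red pulse before growth in true darkness, so neither group is a seedling that never saw light. The other 6 libraries, from *pif145* (PIF1, PIF4 and PIF5 mutated) and *pif3*, shared the fit and are used here only to place single genes. The labels do not name the alleles.

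The phytochrome-interacting factors (PIFs) belong to the basic helix-loop-helix family, build up in darkness and bind G-box and related E-box sequences in DNA. In dark-grown seedlings they sustain the etiolated habit, with a long hypocotyl, a closed apical hook and small, folded cotyledons in which chloroplast development is held back. Light activates phytochromes, which cause the PIFs to be degraded, and a dark-grown *pifq* seedling is known for looking like a seedling grown in light.

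The libraries held 23907577, 41247734 and 26122661 reads in *pifq* replicates 1, 2 and 3, and 26073668, 36860574 and 34201755 reads in WT. The reads carry no molecular identifiers, so read sums and the intervals computed from them cover counting error alone. The 10 most abundant loci took 10.8 to 13.0% of the reads in *pifq* and 14.0 to 18.7% in WT. Levels are given as CPM, read counts scaled to a common library size with TMM factors, and fold changes are log2 values of *pifq* over WT with their standard error (SE). A gene is said to have risen, fallen or changed where the adjusted p of the edgeR quasi-likelihood test was at most 0.05 and the change at least 2-fold. Where a value is given without a replicate, that number was left out of every genotype unless a genotype is named.

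The sequences upstream of genes on which the results turn are shown first, since the G-box CACGTG and the PBE-box CACATG are the motifs PIFs are known to bind. Both strands were searched, so CATGTG counts as a PBE-box, and matches that overlap were kept. Matches are in capitals in otherwise lower-case sequence. *PIL1* and *HFR1* had no G-box in the 250 bases before their annotated starts. *PIL1* had 3 in 3000 bases, whose first bases lay 1222, 1211 and 1093 bases before the start, and *HFR1* had 2 in 3000 bases, the nearer at 1000 bases. The next counts are for the 250 bases before the start. *IAA19* had 1 at 70 bases, with a PBE-box farther out, and *ASN1* had 1 at 167 bases, while *OLEO3* had 2, at 169 and 40 bases, with a PBE-box between them. *CLO3* had 1 at 68 bases. In 3000 bases *IAA19* had 2 and *CLO3* had 3. *CYP83A1* is shown beside these genes because it rose in *pifq* and had a G-box too, at 43 bases. The stretches are from assembly TAIR10.1, read 5′ to 3′ on the strand of the gene, and those of 250 bases end just before the start.
PIL1 (chr2:19298939-19299098, - strand): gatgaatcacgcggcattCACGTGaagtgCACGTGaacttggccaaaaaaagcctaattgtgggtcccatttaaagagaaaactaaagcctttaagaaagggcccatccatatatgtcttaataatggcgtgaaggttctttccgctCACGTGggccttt
HFR1 (chr1:468851-468910, - strand): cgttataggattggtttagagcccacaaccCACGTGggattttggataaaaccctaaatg
IAA19 (chr3:5263751-5264000, + strand): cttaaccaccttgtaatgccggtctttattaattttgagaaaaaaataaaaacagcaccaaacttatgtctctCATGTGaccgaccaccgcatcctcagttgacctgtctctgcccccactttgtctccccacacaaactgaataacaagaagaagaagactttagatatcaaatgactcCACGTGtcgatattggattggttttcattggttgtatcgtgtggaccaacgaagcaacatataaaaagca
ASN1 (chr3:17441432-17441681, - strand): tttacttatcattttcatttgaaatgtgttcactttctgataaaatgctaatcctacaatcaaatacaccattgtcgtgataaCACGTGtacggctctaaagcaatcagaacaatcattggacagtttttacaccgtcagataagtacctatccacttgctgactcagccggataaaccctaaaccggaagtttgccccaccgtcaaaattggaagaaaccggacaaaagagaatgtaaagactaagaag
OLEO3 (chr5:20819818-20820067, + strand): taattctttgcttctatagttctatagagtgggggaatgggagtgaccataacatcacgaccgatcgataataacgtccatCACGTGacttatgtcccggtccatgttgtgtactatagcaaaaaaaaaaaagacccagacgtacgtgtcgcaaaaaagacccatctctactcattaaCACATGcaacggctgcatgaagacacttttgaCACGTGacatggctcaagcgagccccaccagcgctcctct
CLO3 (chr2:14146556-14146805, - strand): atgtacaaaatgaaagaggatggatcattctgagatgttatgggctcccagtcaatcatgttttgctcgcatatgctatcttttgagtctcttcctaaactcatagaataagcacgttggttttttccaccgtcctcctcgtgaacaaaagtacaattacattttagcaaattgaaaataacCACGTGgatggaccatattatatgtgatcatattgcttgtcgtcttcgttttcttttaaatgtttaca
CYP83A1 (chr4:7992430-7992679, - strand): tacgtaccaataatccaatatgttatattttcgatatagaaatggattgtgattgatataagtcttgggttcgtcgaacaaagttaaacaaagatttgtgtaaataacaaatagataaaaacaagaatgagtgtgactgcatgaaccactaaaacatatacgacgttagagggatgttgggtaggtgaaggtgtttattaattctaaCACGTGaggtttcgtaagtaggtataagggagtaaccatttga

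Over whole sets, the G-box was in the 250 bases before the start of 72 of 740 genes that fell (9.73%) and 87 of 1098 genes that rose (7.92%), against 7.63% of all genes tested and 6.58% of all protein-coding genes. In the 1000 bases before the start the shares were 22.8% of genes that fell, 16.4% of genes that rose and 16.3% of all genes tested. The PBE-box was in the 250 bases before the start of 18.1% of genes that fell, 13.8% of genes that rose and 11.3% of all genes tested, and in the 1000 bases before it of 50.7%, 39.5% and 38.3%. Both motifs had their highest shares before the genes that fell. The shares for genes that rose were above those of all genes tested by less, and for the PBE-box this was clearest in the shorter window. These are descriptions of letters in a window, with no test.

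The 4 mutated genes were read first as a check of the labels. *PIF1* (AT2G20180, chromosome 2, 8704024 to 8707009) had 0.125, 0.0762 and 0.085 CPM in *pifq*, against 10.6, 9.58 and 9.04 CPM in WT (log2 fold change -6.66 ± 0.23, adjusted p = 2.42e-16). *PIF3* (AT1G09530, chromosome 1, 3075768 to 3079654) had 0.418, 1.27 and 1.15 CPM in *pifq*, against 52.3, 80.1 and 52.8 CPM in WT (-6.03 ± 0.15, adjusted p = 1.36e-18). *PIF5* (AT3G59060, chromosome 3, 21827905 to 21830837) had 2 reads in the 3 *pifq* libraries together, against 129 in WT, a ratio of 54.4 in favour of WT with a 95% counting interval of 14.7 to 454. Each was far lower in every *pifq* library than in any WT library, though *PIF3* still had 10, 50 and 27 reads in *pifq*. *PIF4* (AT2G43010, chromosome 2, 17886101 to 17889087) had 2.8, 2.95 and 2.55 CPM in *pifq*, against 5.33, 2.83 and 1.73 CPM in WT, with overlapping libraries (-0.17 ± 0.22, adjusted p = 0.55). Reads were counted only in the last 500 bases of a transcript, so a transcript that is disrupted upstream could still be counted. For *PIF4* the genotype therefore rests on the label.

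Of 18356 genes tested, 1908 changed (10.4%). Of these 1133 rose (6.17% of genes tested) and 775 fell (4.22%), so that 59.4% of the changes were rises. With library totals alone and no scaling factors, 817 rose and 1147 fell, and 41.6% of the changes were rises. That setting moved the median log2 fold change of all genes to -0.19, against -0.03 with TMM scaling, and the changes given are on the TMM scale. The median rise was 1.39 and the median fall -1.37 on the log2 scale. At least 4-fold changes were seen in 230 genes that rose and 166 that fell, and at least 16-fold changes in 34 and 27. The 3 *pifq* and 3 WT libraries did not overlap for 1749 of the 1908 changed genes, while they did not overlap for 34.0% of all genes tested. The 12 largest rises and 12 largest falls were chosen among genes with separate libraries, so their separation below restates that choice. With no fold limit, 24.6% of genes tested were higher and 26.0% lower in *pifq* at an adjusted p of at most 0.05, and 27.1% were higher and 28.9% lower at an unadjusted p under 0.05.

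**Figure D1:**
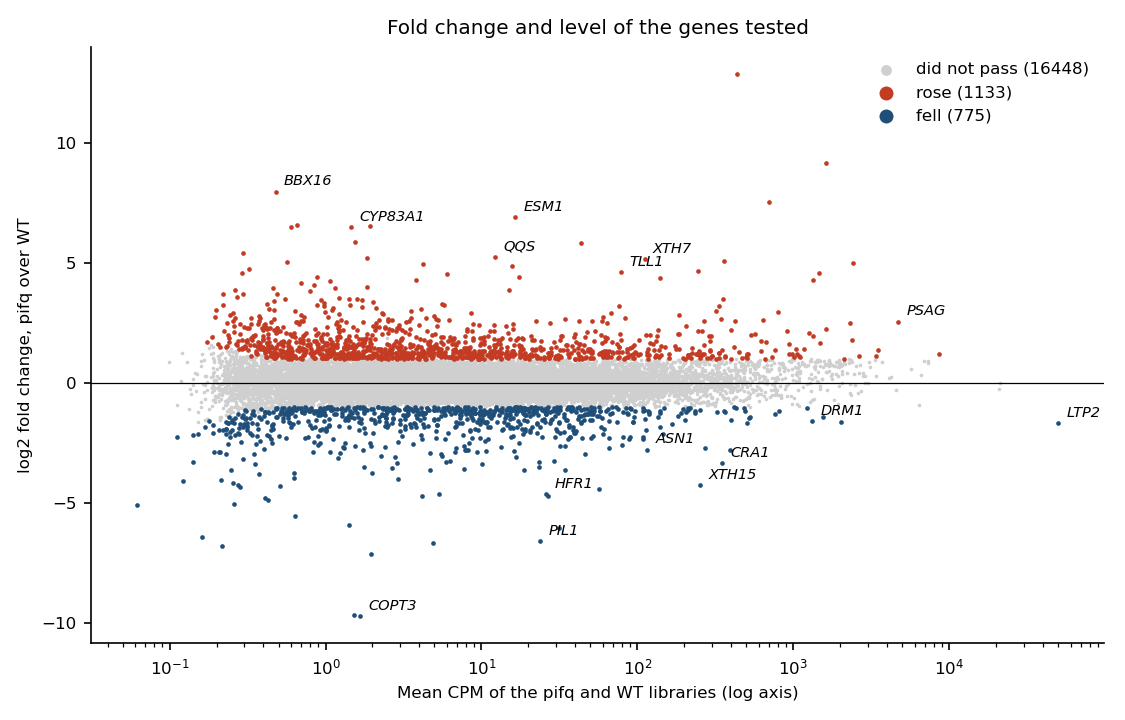
Log2 fold change of *pifq* over WT (vertical axis) against the mean CPM of the 6 libraries (horizontal, log axis) for 18356 genes. The 1133 genes that rose and 775 that fell spread over the whole range of levels, and *LTP2* at the far right fell by 1.68 on the log2 scale.

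Genes closely tied to the PIFs fell strongly. *PIL1* (AT2G46970), a close relative of the PIFs and a classic marker of shade and dark responses, had 0.167, 0.864 and 0.297 CPM in *pifq*, against 37.2, 58.1 and 46.1 CPM in WT (-6.59 ± 0.19, adjusted p = 7.18e-16). *HFR1* (AT1G02340), an atypical helix-loop-helix protein that binds PIFs and restrains them, had 1.59, 2.26 and 2.21 CPM in *pifq*, against 49.9, 50.2 and 49.4 CPM in WT (-4.62 ± 0.13, adjusted p = 7.15e-18). The highest *pifq* library was far below the lowest WT library for both genes, and the WT libraries were nearly level for *HFR1*. *ATHB-2* (AT4G16780), an HD-Zip factor of shade growth, had 3.3, 1.83 and 1.66 CPM in *pifq*, against 18.7, 12.7 and 18.2 CPM in WT (-2.88 ± 0.15, adjusted p = 1.63e-13). Replicate 1 was the highest library in both genotypes for *ATHB-2*, and the genotypes stayed apart.

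The list of helix-loop-helix and HD-Zip growth regulators moved one way. Of its 19 members 18 were tested, 12 fell (66.7%) and none rose, against 4.22% and 6.17% of all genes. All 18 had a negative fold change, with a median of -1.21. The other falls included *PIF6* (-3.75 ± 0.33), a further PIF, and *ATHB4* (-1.92 ± 0.32), a relative of *ATHB-2*. *BEE1* (-1.67 ± 0.25) and *BEE3* (-1.26 ± 0.12), which promote brassinosteroid growth responses, fell together with *IBH1* (-1.23 ± 0.11) and *PAR1* (-1.04 ± 0.10), which oppose elongation. The *PAR1* call was lost without replicate 2 or 3 of both genotypes or of either (-0.99 to -0.93). Growth promoters and growth inhibitors were thus both among the falls. The member with too few reads to be tested was *PIF7*, with 13, 16 and 8 reads in *pifq*, against 0, 0 and 0 in WT, at least 14.6-fold higher in *pifq* on a floor of 3 reads over the WT libraries. It was called a rise where the filter let it in, as with no filter on low counts (edgeR adjusted p = 4.32e-05). *PAR2* had 27.9, 33.1 and 51.1 CPM in *pifq*, against 54.4, 76.5 and 134 CPM in WT, with replicate 3 highest in both (-1.19 ± 0.09, adjusted p = 2.03e-10).

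**Figure D2:**
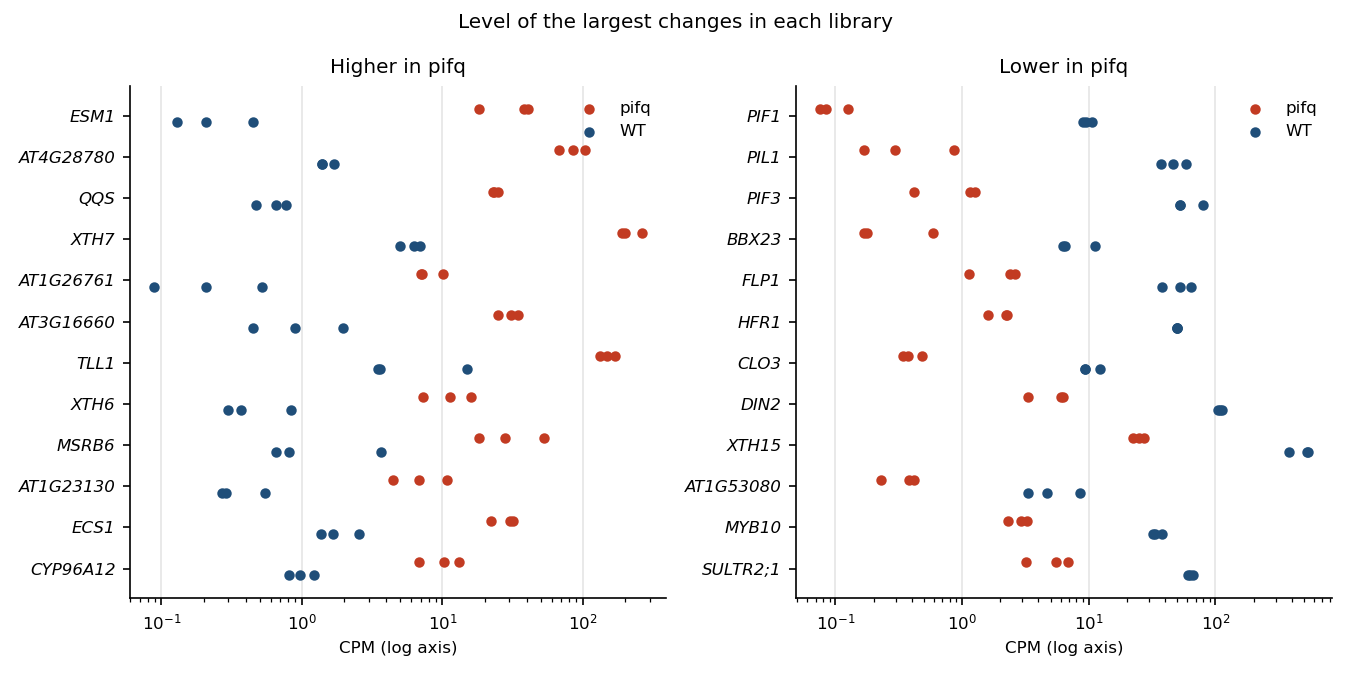
CPM (log axis) of each *pifq* (red) and WT (blue) library for the 12 largest rises (left) and 12 largest falls (right) named by rule. The genes were chosen with separate genotypes, and *PIL1* sits between 0.167 and 0.864 CPM in *pifq* and between 37.2 and 58.1 CPM in WT.

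Light-signalling genes had more falls than rises. Of 10 B-box factors, zinc-finger proteins of light signalling, 3 fell (30%) and 1 rose (10%), against 4.22% and 6.17% of all genes. *BBX23* (AT4G10240) had 0.167, 0.178 and 0.595 CPM in *pifq*, against 6.3, 6.54 and 11.3 CPM in WT (-4.73 ± 0.24, adjusted p = 1.93e-13). *BBX28* had 21.6, 28.4 and 19 CPM in *pifq*, against 58.7, 91 and 52.3 CPM in WT (-1.53 ± 0.09, adjusted p = 2.32e-12). *BBX29* had 4 reads in *pifq* and 99 in WT, a ratio of 20.9 with a counting interval of 7.90 to 78.1. The *pifq* libraries lay below all WT libraries in each case. *BBX25* rose on few reads, 82 in *pifq* and 9 in WT (3.47 ± 0.50, adjusted p = 3.17e-06). Outside the list and chosen after its values were seen, *BBX16* (AT1G73870) had 81 reads in *pifq* and 0 in WT, which makes it at least 32.0-fold higher in *pifq* on the same floor. DESeq2 did not call *BBX16* (adjusted p = 0.134).

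Among 31 photoreceptor and light-signalling genes, 2 rose (6.45%, close to the 6.17% of all genes) and 4 fell (12.9%). *RPT2* (AT2G30520), a signal transducer of phototropism, had 101, 53.6 and 61.8 CPM in *pifq*, against 14.4, 9.86 and 11.3 CPM in WT (2.57 ± 0.11, adjusted p = 4.93e-13). *FHY1* (AT2G37678), which carries phytochrome A into the nucleus, had 24.5, 24.7 and 32.8 CPM in *pifq*, against 51.7, 59.6 and 68.5 CPM in WT (-1.14 ± 0.07, adjusted p = 1.13e-11). Its homologue *FHL* had 10 reads in *pifq* and 66 in WT (-2.44 ± 0.51, adjusted p = 3.39e-04). All 3 genes had separate genotypes, and *FHL* rests on few reads. *HY5*, the bZIP factor that promotes light development, had 2.88, 2.34 and 2.42 CPM in *pifq*, against 6.1, 8.53 and 7.38 CPM in WT (-1.53 ± 0.19, adjusted p = 1.48e-06). *SPA4* fell (-1.03 ± 0.36) and *PKS3* rose (1.04 ± 0.23), both close to the 2-fold limit, and neither call held without replicate 3 (-0.68 and 0.88). The *SPA4* call was also lost without replicate 2, *pifq* replicate 2 or 3, or WT replicate 3 (-1.14 to -0.72), and the *PKS3* call without replicate 1 or without replicate 1 or 3 of either genotype (0.86 to 0.96). The photoreceptors themselves did not pass, with *PHYA* at -0.92 ± 0.07 and *PHYB* at -0.89 ± 0.12, though *PHYB* passed as a fall without replicate 1 (-1.07) or *pifq* replicate 1 (-1.05).

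Most of the photosynthetic apparatus rose beyond the antenna. Of 33 nuclear genes of the photosystem cores and electron transport, 28 rose (84.8%) and none fell, against 6.17% and 4.22% of all genes. The median was 1.74. *PSAG* (AT1G55670), a subunit of photosystem I, had 9882, 6645 and 7700.0 CPM in *pifq*, against 1279, 1423 and 1386 CPM in WT (2.55 ± 0.14, adjusted p = 6.15e-08). *FD2* (AT1G60950), the main leaf ferredoxin, had 1199.8, 751 and 918 CPM in *pifq*, against 318, 257 and 274 CPM in WT (1.74 ± 0.07, adjusted p = 7.81e-15). *PETE2* (AT1G20340), which encodes plastocyanin, had 3422, 5128 and 6428 CPM in *pifq*, against 1238, 2222 and 2375 CPM in WT (1.37 ± 0.07, adjusted p = 1.63e-13). Replicate 1 was the lowest library of both genotypes for *PETE2* and the highest of *pifq* for *FD2* and *PSAG*, and no genotypes overlapped. The summed level of the 33 genes was 35748 to 42380.1 CPM in *pifq* and 10819 to 11505 CPM in WT. For context, 17 of the 21 antenna genes, among which are near-identical copies, rose too.

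Chlorophyll synthesis genes rose in part. Of 29 tested, 11 rose (37.9%) and none fell, against 6.17% and 4.22% of all genes, with a median of 0.91. *CHLH* (AT5G13630), a subunit of magnesium chelatase, had 453, 506 and 458 CPM in *pifq*, against 127, 135 and 111 CPM in WT (1.93 ± 0.09, adjusted p = 1.29e-13). *HEMA1* (AT1G58290), which encodes the glutamyl-tRNA reductase that starts tetrapyrrole synthesis, had 114, 132 and 179.8 CPM in *pifq*, against 33.2, 49.2 and 59.7 CPM in WT (1.59 ± 0.09, adjusted p = 1.06e-12). Both genes were higher in every *pifq* library than in any WT library. *GUN4* (1.97 ± 0.12), *CAO* (1.78 ± 0.11) and *CRD1* (1.40 ± 0.08) were among the other rises. *PORA*, the protochlorophyllide oxidoreductase that is abundant in etiolated tissue, had 502, 891 and 852 CPM in *pifq*, against 1219, 1664 and 1401 CPM in WT, just under 2-fold (-0.96 ± 0.09). It passed as a fall without replicate 3, *pifq* replicate 2 or 3, or WT replicate 3 (-1.08 to -1.02), while *PORC*, another oxidoreductase, rose (1.07 ± 0.09), a call lost without replicate 3 (0.99).

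Carbon fixation moved less than the light reactions. Of 21 Calvin cycle genes 5 rose (23.8%) and none fell, against 6.17% and 4.22% of all genes, with a median of 0.79. The rises were *GAPA2* (1.59 ± 0.13), *RCA* (1.36 ± 0.10), which encodes rubisco activase, *FBA1* (1.34 ± 0.08), *RBCS1B* (1.22 ± 0.09) and *FBA2* (1.14 ± 0.07), and *FBA1* and *FBA2* encode plastid aldolases. Without replicate 2, 8 of the list rose. *RBCS1B* is read where it differs from the other rubisco small-subunit genes, of which *RBCS1A* stood at 0.90 ± 0.15 and *RBCS2B* at -0.44 ± 0.07. *RBCS1A* passed as a rise without replicate 2 of both genotypes or of either (1.05 to 1.17). Of 11 photorespiration genes 1 rose (9.09%) and none fell, against 6.17% and 4.22% of all genes. It was *PGLP1* (AT5G36790), on 65 reads in *pifq* and 16 in WT, and none of its 36-base windows is distinct from AT5G36700. Its call is therefore uncertain.

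**Figure D3:**
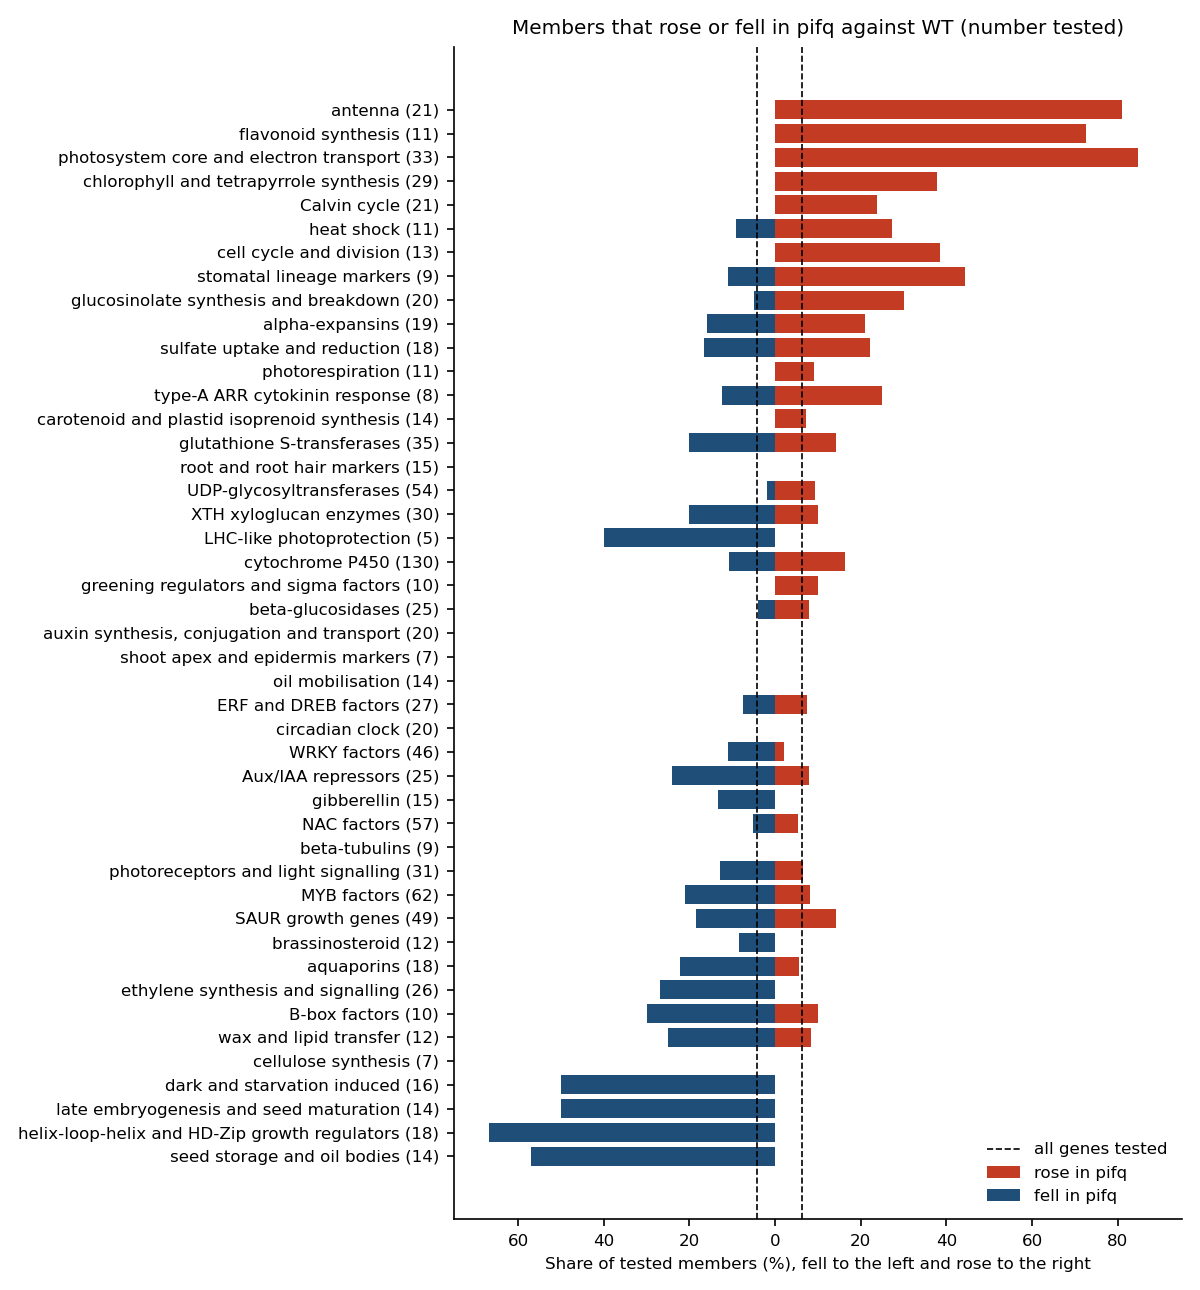
Share of the tested members of 45 gene lists that rose in *pifq* (red, to the right) or fell (blue, to the left), ordered by the median log2 fold change, with the number tested in brackets. Dashed lines mark the shares among all genes tested, 6.17% for rises and 4.22% for falls.

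A few plastid-related genes departed from this. Among 10 greening regulators and sigma factors 1 rose (10%) and none fell, against 6.17% and 4.22% of all genes. It was *CGA1* (AT4G26150), a GATA factor of chloroplast development, with 1.34, 3.35 and 3.02 CPM in *pifq*, against 0.355, 0.942 and 0.892 CPM in WT (1.81 ± 0.24, adjusted p = 1.29e-06). Replicate 1 was the lowest library in both genotypes. The early light-induced proteins, relatives of the antenna proteins that act in photoprotection, fell. *ELIP2* (AT4G14690) had 1, 1.37 and 2.42 CPM in *pifq*, against 5.39, 11.9 and 18.3 CPM in WT (-2.89 ± 0.31, adjusted p = 3.45e-05), and *ELIP1* (AT3G22840) had 0.0836, 0.0508 and 0.127 CPM in *pifq*, against 1.13, 0.68 and 1.7 CPM in WT (-3.75 ± 0.53, adjusted p = 3.02e-06). Every *pifq* library was below every WT library. Of the other 3 members of that list none passed, and *OHP1* stood at 0.83 ± 0.07. The falls were 40% of the list, against 4.22% of all genes. Of 14 tested genes of carotenoid and plastid isoprenoid synthesis 1 rose (7.14%), close to the 6.17% of all genes, and none fell. It was *PSY*, with 42, 36.1 and 44.4 CPM in *pifq*, against 21.7, 17.6 and 17.7 CPM in WT (1.10 ± 0.15, adjusted p = 6.80e-05). That call was lost without replicate 3, with a log2 fold change of 1.00.

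Flavonoid synthesis, which makes ultraviolet screens and pigments, was higher in *pifq*. Of 16 genes 11 were tested, and 8 rose (72.7%) and none fell, against 6.17% and 4.22% of all genes. The median was 1.77. The summed level was 105 to 125 CPM in *pifq* and 37 to 43 CPM in WT. *CHS* (AT5G13930), the entry enzyme chalcone synthase, had 23.2, 17.7 and 20 CPM in *pifq*, against 4.1, 7.38 and 6.46 CPM in WT (1.77 ± 0.18, adjusted p = 1.86e-06). *CHI* (AT3G55120), the next enzyme, had 29.9, 20.9 and 21.4 CPM in *pifq*, against 4.71, 4.63 and 4.43 CPM in WT (2.36 ± 0.12, adjusted p = 1.12e-13). *FLS1* (AT5G08640), flavonol synthase, had 15, 13.8 and 20.6 CPM in *pifq*, against 3.42, 4.84 and 4.76 CPM in WT (1.91 ± 0.12, adjusted p = 1.04e-11). In all 3 genes the lowest *pifq* library was above the highest WT library. The regulator *MYB75*, which turns on anthocyanin genes, had 67 reads in *pifq* and 5 in WT, a ratio of 15.9 with a counting interval of 6.48 to 50.6. *F3H*, a hydroxylase of the pathway, rose by 1.06 ± 0.20, and that call was lost without replicate 1 or 3, *pifq* replicate 1 or 3, or WT replicate 1 (0.81 to 0.98). *FAH1* (AT4G36220), a P450 of sinapate and lignin synthesis, also rose, with 10, 4.93 and 11 CPM in *pifq*, against 1.84, 0.785 and 1.07 CPM in WT (2.80 ± 0.21, adjusted p = 1.05e-10).

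Glucosinolate genes gave some of the largest fold changes, at low levels. Glucosinolates are sulfur-rich defence compounds, and the aliphatic ones are built from chain-elongated methionine. *ESM1* (AT3G14210, chromosome 3, 4729399 to 4731847), which steers glucosinolate breakdown towards isothiocyanates, had 38.4, 18.3 and 41 CPM in *pifq*, against 0.129, 0.209 and 0.446 CPM in WT (6.91 ± 0.25, adjusted p = 1.29e-13). It was the largest rise outside the antenna list among genes of at least 5 CPM in the higher genotype, and its lowest *pifq* library was far above its highest WT library. *BCAT4* (AT3G19710), the aminotransferase that starts methionine chain elongation, had 333 reads in *pifq* and 4 in WT, a ratio of 98.8 with a counting interval of 38.2 to 365. *CYP83A1* (AT4G13770), which oxidises the aliphatic aldoximes, had 247 reads in *pifq* and 3 in WT, a ratio of 97.7 with an interval of 33.0 to 477.

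3 other genes of the aliphatic branch, chosen after their values were seen, rose as well. *CYP79F2*, which makes those aldoximes, had 2.09, 3.23 and 5.48 CPM in *pifq*, against 0.161, 0.0262 and 0.119 CPM in WT (5.18 ± 0.53, adjusted p = 9.38e-07). *MAM3*, a synthase of chain elongation, had 1.59, 1.73 and 1.83 CPM in *pifq*, against 0.291, 0.131 and 0.0595 CPM in WT (3.44 ± 0.43, adjusted p = 4.71e-07). *MYB28*, the main activator of the aliphatic genes, had 39 reads in *pifq* and 6 in WT (2.91 ± 0.68, adjusted p = 9.79e-04). The genotypes did not overlap in any of them. In all, 20 of 25 glucosinolate genes were tested, and 6 rose (30%) and 1 fell (5%), against 6.17% and 4.22% of all genes. Where at least 5 CPM in 3 libraries was asked for, 1 rose. The fall was *MYB51*, a regulator of the indolic branch, with 1.59, 2.26 and 1.91 CPM in *pifq*, against 6.33, 5.86 and 7.2 CPM in WT (-1.72 ± 0.17, adjusted p = 9.83e-09). Enzymes of the indolic branch did not pass, with *CYP79B2* at 0.56 ± 0.11, *CYP79B3* at 0.31 ± 0.09 and *CYP83B1* at -0.06 ± 0.08. *TGG1*, an abundant myrosinase, stood at -0.06 ± 0.08. *NSP5*, which directs breakdown to nitriles, had 71.1, 113 and 77.9 CPM in *pifq*, against 135, 221 and 164 CPM in WT, just short of 2-fold (-0.99 ± 0.07). It passed without replicate 1 or without *pifq* replicate 1, at -1.02 in both.

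Sulfate genes were divided. Of 18 tested, 4 rose (22.2%) and 3 fell (16.7%), against 6.17% and 4.22% of all genes. *APR2* (AT1G62180), an enzyme of sulfate reduction, had 29, 29.9 and 28.2 CPM in *pifq*, against 11.3, 14.2 and 15.1 CPM in WT (1.11 ± 0.10, adjusted p = 1.39e-09), and *APR1* (1.17 ± 0.21), *SULTR1;1* (1.40 ± 0.23) and *SULTR2;2* (1.25 ± 0.43) also rose. The *APR2* call was lost without replicate 1, at 0.98, and that of *SULTR2;2* without replicate 2 or 3, *pifq* replicate 3 or WT replicate 2 (0.93 to 1.11). *SULTR2;1* (AT5G10180), a vascular low-affinity transporter, had 3.22, 6.81 and 5.48 CPM in *pifq*, against 62.8, 66.4 and 60.7 CPM in WT (-3.62 ± 0.15, adjusted p = 1.27e-10). *SULTR3;1* (AT3G51895), a transporter of the chloroplast, had 1.25, 3.3 and 1.61 CPM in *pifq*, against 11.6, 17.1 and 14.4 CPM in WT (-2.78 ± 0.20, adjusted p = 7.64e-09). Both genes were low in all *pifq* libraries, and replicate 2 was the highest of both genotypes in each. *SULTR3;5* had 3 reads in *pifq* and 47 in WT, a ratio of 13.2 with a counting interval of 4.25 to 66.3. Transporters thus moved in both directions, and both called reductase genes rose.

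Some genes that respond to darkness and sugar starvation fell. Of 16 tested, 8 fell (50%) and none rose, against 4.22% and 6.17% of all genes, and the median was -1.05. *DIN2* (AT3G60140), a dark-inducible beta-glucosidase, had 3.3, 6.02 and 6.29 CPM in *pifq*, against 112, 105 and 109.6 CPM in WT (-4.42 ± 0.23, adjusted p = 9.68e-07). *ASN1* (AT3G47340), the dark-induced asparagine synthetase, had 40.4, 30.1 and 18.9 CPM in *pifq*, against 243, 202 and 158 CPM in WT (-2.78 ± 0.09, adjusted p = 3.22e-16). *BCAT2* (AT1G10070), an aminotransferase of branched-chain amino acid breakdown, had 3.84, 4.17 and 3.23 CPM in *pifq*, against 44.6, 46.7 and 37.5 CPM in WT (-3.51 ± 0.16, adjusted p = 2.42e-10). The genotypes were far apart in all 3, and *ASN1* had its highest level in replicate 1 and its lowest in replicate 3 of both genotypes.

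Of the same list, *MCCA* (AT1G03090), a carboxylase of leucine breakdown, had 7.02, 8.54 and 8.16 CPM in *pifq*, against 28.3, 36.7 and 34 CPM in WT (-2.06 ± 0.11, adjusted p = 9.09e-13). *DRM1* (AT1G28330), a dormancy-associated gene, had 531, 695 and 721 CPM in *pifq*, against 1506, 2212 and 2296 CPM in WT (-1.61 ± 0.08, adjusted p = 2.45e-13). *SEN1* (AT4G35770), a senescence- and dark-responsive gene, had 196, 269 and 389 CPM in *pifq*, against 473, 793 and 1056 CPM in WT (-1.43 ± 0.08, adjusted p = 1.03e-12). Each had its lowest level in replicate 1 of both genotypes, and the genotypes did not overlap. *DYL1* (-1.22 ± 0.14) and *DIN3* (-1.10 ± 0.09) made up the 8, and the list summed to 1805 to 2247 CPM in *pifq* and 4132 to 6099 CPM in WT.

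Genes of seed storage and maturation gave further falls. Of 14 tested genes of storage proteins and oil bodies 8 fell (57.1%) and none rose, against 4.22% and 6.17% of all genes. The median was -1.25. *OLEO3* (AT5G51210), an oil-body oleosin, had 21.5, 14.6 and 16.5 CPM in *pifq*, against 132, 103 and 109 CPM in WT (-2.72 ± 0.09, adjusted p = 2.42e-16). *CLO3* (AT2G33380), a caleosin, had 0.376, 0.483 and 0.34 CPM in *pifq*, against 9.27, 9.34 and 12.3 CPM in WT (-4.62 ± 0.23, adjusted p = 4.05e-13). The study places *CLO3*, also named *RD20*, under stress and defence, so its fall need not concern seed storage. *CRA1* (AT5G44120), a cruciferin storage globulin, had 41.6, 88.8 and 53.3 CPM in *pifq*, against 997, 531 and 383 CPM in WT (-3.33 ± 0.48, adjusted p = 0.00126). *OLEO3* and *CLO3* were tight within each genotype, while *CRA1* in WT replicate 1 was well above the other two WT libraries. The list summed to 181 to 304 CPM in *pifq* and 855 to 1860.3 CPM in WT, and without replicate 1 of every genotype 5 of its genes fell and the median was -0.64. *CRC*, another cruciferin, fell by 2.34 on the log2 scale (SE 0.49), and that call was lost without replicate 2 (-2.61) or replicate 3 (-2.74), where its adjusted p was 0.0523 and 0.0703.

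Among 14 tested genes of late embryogenesis and seed maturation 7 fell (50%) and none rose, against 4.22% and 6.17% of all genes. Without replicate 1, or without WT replicate 1, *LEA4-5* passed as a rise (1.09 and 1.04), with 0.82 ± 0.20 over all libraries. *HIS1-3* (AT2G18050), a stress-linked linker histone, had 3.34, 6.35 and 6.5 CPM in *pifq*, against 71.6, 36.1 and 50.7 CPM in WT (-3.26 ± 0.38, adjusted p = 4.00e-04). *M17* (AT2G41260), a late embryogenesis protein, had 20.2, 22.8 and 20 CPM in *pifq*, against 239, 104 and 74.9 CPM in WT (-2.58 ± 0.32, adjusted p = 6.02e-04). *TIP3;2* (AT1G17810), an aquaporin of seed vacuoles, had 8.19, 6.07 and 4.29 CPM in *pifq*, against 42, 15.6 and 16 CPM in WT (-1.88 ± 0.19, adjusted p = 8.13e-06). WT replicate 1 was again the highest library in these genes, and no genotypes overlapped. In whole seedlings a lower level can mean fewer cells that hold a transcript or less of it in each cell, and bulk libraries cannot tell these apart. Enzymes that break down seed oil moved less, with log2 fold changes from -0.75 to 0.19 and a median of -0.21. Of 14 tested none passed with edgeR or DESeq2. With no fold limit, 0 were higher and 6 lower at an edgeR adjusted p of at most 0.05, against 24.6% and 26.0% of all genes. At an unadjusted p under 0.05, 1 was higher (7.14%) and 9 lower (64.3%), against 27.1% and 28.9% of all genes. Isocitrate lyase (*ICL*), the glyoxylate-cycle enzyme, averaged 18823 CPM in *pifq* and 22669 CPM in WT (-0.24 ± 0.11, adjusted p = 0.0882).

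**Figure D4:**
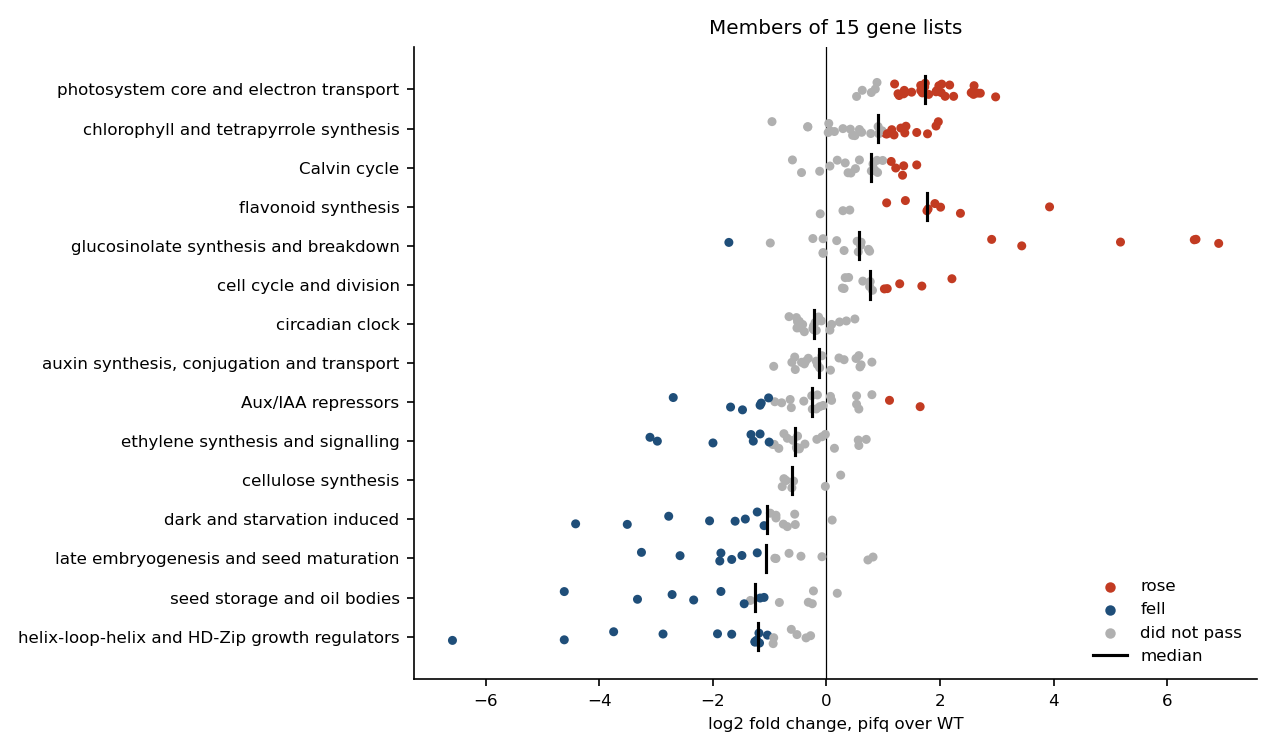
Log2 fold change of *pifq* over WT for every tested member of 15 gene lists, coloured by whether it rose (red), fell (blue) or did not pass (grey), with the list median as a black bar. The median is 1.74 for photosystem core and electron transport genes and -1.21 for helix-loop-helix and HD-Zip regulators.

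Hormone genes differed by pathway. Of 25 Aux/IAA genes, early auxin-response repressors, 6 fell (24%) and 2 rose (8%), against 4.22% and 6.17% of all genes. *IAA29* (AT4G32280) had 2.97, 1.6 and 0.977 CPM in *pifq*, against 16.6, 11.3 and 7.62 CPM in WT (-2.70 ± 0.15, adjusted p = 6.80e-13). *IAA19* (AT3G15540) had 16.7, 10.7 and 11.7 CPM in *pifq*, against 49.1, 35.7 and 40.7 CPM in WT (-1.69 ± 0.09, adjusted p = 1.63e-13). *IAA3* (AT1G04240) had 30.8, 37.9 and 25.8 CPM in *pifq*, against 87.7, 95.8 and 78.7 CPM in WT (-1.48 ± 0.07, adjusted p = 9.19e-14). The lowest WT library was above the highest *pifq* library in each, and *IAA29* ran highest in replicate 1 of both genotypes. *IAA7*, *IAA6* and *IAA17* also fell, by 1.17, 1.15 and 1.02 on the log2 scale, and the *IAA17* call was lost without replicate 3 of both genotypes or of either (-0.99 to -0.97). *IAA5* rose (1.65 ± 0.32) and so did *IAA34* (1.11 ± 0.23), whose libraries overlapped and whose call was lost without replicate 3 (1.00) or WT replicate 2 (0.94). Of 20 tested genes of auxin synthesis, conjugation and transport none passed with edgeR or DESeq2, with a median of -0.14 and a range of -0.93 to 0.80. At an unadjusted p under 0.05, 6 were higher and 7 lower, against 27.1% and 28.9% of all genes. The lowest was *PID*, a kinase that directs auxin transport, with 3.34, 2.06 and 2.08 CPM in *pifq*, against 5.01, 5.28 and 3.63 CPM in WT, which passed as a fall without replicate 1 of both genotypes or of either (-1.13 to -1.05).

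SAUR genes, small auxin-induced growth genes, split. Of 80 loci 49 were tested, and 7 rose (14.3%) and 9 fell (18.4%), against 6.17% and 4.22% of all genes. AT4G38840 (chromosome 4, 18124978 to 18125559) had 59.2, 63.4 and 70.3 CPM in *pifq*, against 12.9, 17.4 and 16.7 CPM in WT (2.04 ± 0.10, adjusted p = 1.13e-13). AT4G38860, which lies close by (18130237 to 18131284), had 14.2, 25.7 and 24.4 CPM in *pifq*, against 36.6, 71.2 and 77.4 CPM in WT (-1.51 ± 0.09, adjusted p = 3.38e-12). Neighbouring members therefore moved in opposite directions, each with separate genotypes. *SAUR23* (AT5G18060), a promoter of hypocotyl growth, had 7.65, 7.8 and 5.14 CPM in *pifq*, against 20, 28 and 24 CPM in WT (-1.82 ± 0.15, adjusted p = 1.42e-08). Of its 36-base windows 89% occur in no other gene, so reads from close copies were largely left out.

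Some ethylene genes fell. Of 26 tested, 7 fell (26.9%) and none rose, against 4.22% and 6.17% of all genes, and the median was -0.56. *ACS5* (AT5G65800), an ACC synthase that sets ethylene production in dark-grown seedlings, had 1.25, 1.32 and 1.15 CPM in *pifq*, against 8.65, 10.6 and 10.1 CPM in WT (-2.98 ± 0.15, adjusted p = 1.51e-13). *ACS8*, another ACC synthase, had 0.836, 0.33 and 0.68 CPM in *pifq*, against 4.42, 5.73 and 4.7 CPM in WT (-3.11 ± 0.25, adjusted p = 5.01e-10). The genotypes were separate in both genes. The receptor gene *ERS2* fell (-1.33 ± 0.10), as did *EDF3* and *RAV1* (-1.01 ± 0.09), which encode factors of the same family, and AT1G12010 (-1.17 ± 0.13), a gene of ACC oxidase, which makes ethylene in the last step. The AT1G12010 call was lost without replicate 3 (-0.97), and that of *RAV1*, which lay on the limit, without replicate 2 or 3, *pifq* replicate 1 or 3, or WT replicate 2 or 3 (-0.99 to -0.92) and with DESeq2. *EIN2*, *EIN3* and *HLS1*, which act in signalling and in the apical hook, did not pass at -0.95 ± 0.07, -0.48 ± 0.08 and -0.69 ± 0.13, though *EIN2* passed without replicate 3. *ACS4* was not tested for want of reads, with 32 in *pifq* and 1 in WT, and was called a rise with no filter on low counts (edgeR adjusted p = 0.000204).

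Other hormone lists were short and had few members called at 2-fold. Of the gibberellin, brassinosteroid and type-A response regulator genes tested 13.3%, 8.33% and 12.5% fell, against 4.22% of all genes. Rises made up 0%, 0% and 25% of them, against 6.17% of all genes. With no fold limit, 9 of 12 brassinosteroid genes were lower and 0 higher at an edgeR adjusted p of at most 0.05, with a median of -0.48. By the same measure 5 of 15 gibberellin genes were lower and 0 higher, and 1 of 8 type-A response regulators was lower and 4 higher. Of all genes 26.0% were lower and 24.6% higher. Of 15 gibberellin genes *GA20OX3*, a synthesis enzyme, and *GA2OX6*, a catabolic enzyme, fell (-1.78 ± 0.22 and -1.14 ± 0.09) and none rose. Of 12 brassinosteroid genes *BR6OX2*, which makes castasterone, fell (-1.39 ± 0.11), with 5.26, 7.32 and 5.73 CPM in *pifq*, against 13.1, 17.5 and 17.6 CPM in WT. Replicate 1 was the lowest of both genotypes, and the genotypes did not overlap. Of 8 tested type-A response regulators of cytokinin *ARR16* (2.25 ± 0.38) and *ARR7* (1.23 ± 0.20) rose and *ARR8* fell (-1.01 ± 0.09), the last on the edge of the limit and lost without replicate 2 or 3, *pifq* replicate 2 or WT replicate 3 (-0.94 without *pifq* replicate 2).

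Cell wall genes moved in both directions. *XTH7* (AT4G37800), a xyloglucan endotransglucosylase/hydrolase that cuts and rejoins wall xyloglucan, had 262, 189 and 199 CPM in *pifq*, against 6.97, 5.02 and 6.31 CPM in WT (5.15 ± 0.10, adjusted p = 1.38e-20). *XTH6* had 16, 7.27 and 11.4 CPM in *pifq*, against 0.84, 0.366 and 0.297 CPM in WT (4.52 ± 0.19, adjusted p = 8.58e-15). *XTH15* (AT4G14130) had 22.2, 25.1 and 27.4 CPM in *pifq*, against 381, 535 and 529 CPM in WT (-4.27 ± 0.19, adjusted p = 1.97e-07). The extremes of 1 enzyme family thus lay on opposite sides, and no genotypes overlapped. Of 30 XTH genes tested 3 rose (10%) and 6 fell (20%), against 6.17% and 4.22% of all genes. The third rise was *XTH21* (1.13 ± 0.23).

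Expansins, which loosen walls, were split as well. Of 19 tested 4 rose (21.1%) and 3 fell (15.8%), against 6.17% and 4.22% of all genes. *EXPA15* (1.82 ± 0.11), *EXPA10* (1.74 ± 0.13), *EXPA17* (1.67 ± 0.44) and *EXPA1* (1.28 ± 0.11) rose, the last with 103, 120.2 and 140.0 CPM in *pifq*, against 38.6, 45.5 and 67.7 CPM in WT. *EXPA9* fell, with 19.8, 33.9 and 38.5 CPM in *pifq*, against 88.7, 163 and 192 CPM in WT (-2.25 ± 0.12, adjusted p = 1.68e-09). Replicate 1 was the lowest of both genotypes in these 2 genes. *EXPA11* (-1.07 ± 0.09) and *EXPA8* (-1.02 ± 0.09) fell too, and without replicate 3 (-0.99 and -0.94) or WT replicate 3 (-0.98 and -0.94) both calls were lost. The *EXPA11* call was also lost without replicate 2 or *pifq* replicate 2 (-0.98 and -0.99), and the *EXPA8* call without *pifq* replicate 3 (-0.99). None of 7 cellulose synthesis genes passed with edgeR or DESeq2. At an unadjusted p under 0.05, 1 was higher (14.3%) and 5 lower (71.4%), against 27.1% and 28.9% of all genes. The median was -0.61, with *CESA6* at -0.78 ± 0.07 and *CESA1* at -0.75 ± 0.07. *AGP4*, an arabinogalactan protein gene chosen after its values were seen, had 957, 806 and 761 CPM in *pifq*, against 2166, 2213 and 2383 CPM in WT (-1.43 ± 0.08, adjusted p = 1.06e-12). Over 40 tested genes whose product names an arabinogalactan protein, 3 rose and 4 fell, with a median of -0.11. Of 9 beta-tubulin genes none passed with edgeR or DESeq2. By the same unadjusted limit 2 were higher (22.2%) and 6 lower (66.7%). *TUB1*, a tubulin of elongating hypocotyls, had 166, 156 and 122 CPM in *pifq*, against 239, 366 and 271 CPM in WT (-0.97 ± 0.12), and passed as a fall without replicate 1 of both genotypes or of either (-1.20 to -1.10).

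Water channels and surface lipids included the most abundant transcript of the WT libraries. *LTP2* (AT2G38530, chromosome 2, 16128176 to 16129399), a lipid transfer protein of the epidermal surface, had 14241, 29549 and 29428 CPM in *pifq*, against 54028, 81013 and 91465 CPM in WT (-1.68 ± 0.10, adjusted p = 2.70e-10). *LTP1* (AT2G38540, 16130290 to 16131240), which follows it on the same strand, had 413, 208 and 360.3 CPM in *pifq*, against 47.5, 37.6 and 49.4 CPM in WT (2.81 ± 0.10, adjusted p = 5.51e-15). The adjacent genes moved in opposite directions with no overlap of genotypes, and *LTP2* was lowest in replicate 1 of both. *CER1*, an enzyme of wax alkane synthesis, had 15, 17.8 and 11.9 CPM in *pifq*, against 39.2, 45.4 and 41.3 CPM in WT (-1.50 ± 0.11, adjusted p = 9.79e-11), and *KCS1*, of fatty acid elongation, fell by 1.27 on the log2 scale (SE 0.07). Of 18 aquaporins 4 fell (22.2%) and 1 rose (5.56%), against 4.22% and 6.17% of all genes. *PIP2;8* rose, with 161, 99.6 and 113 CPM in *pifq*, against 43.8, 22.8 and 25.6 CPM in WT (2.05 ± 0.08, adjusted p = 9.78e-16). *PIP2;4* (-1.29 ± 0.09), *TIP2;3* (-1.27 ± 0.21), *PIP1;5* (-1.14 ± 0.07) and *PIP2;3* (-1.08 ± 0.09) fell, and 81.5% of the 36-base windows of *PIP2;3* are found in no other gene. The *PIP2;3* call was lost without replicate 3 (-0.99) or *pifq* replicate 3, and the *TIP2;3* call without replicate 2 (-1.16, adjusted p = 0.0694 with edgeR).

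Some genes of cell division rose. Of 13 genes of the cell cycle 5 rose (38.5%) and none fell, against 6.17% and 4.22% of all genes. All 13 had a positive fold change, with a median of 0.77. *CYCD3;3* (AT3G50070), a D-type cyclin of shoot growth, had 47.1, 74.1 and 73.1 CPM in *pifq*, against 20.7, 29.6 and 28.9 CPM in WT (1.29 ± 0.08, adjusted p = 2.15e-12). *KN*, a syntaxin of cytokinesis, had 9.02, 9.4 and 14 CPM in *pifq*, against 3.65, 3.03 and 3.3 CPM in WT (1.68 ± 0.16, adjusted p = 1.03e-08). *CYCB1;1* (2.21 ± 0.33), *PCNA1* (1.07 ± 0.12) and *CYCB1;2* (1.02 ± 0.13) were the other rises, with genotypes apart in all 5. *PCNA1* and *CYCB1;2* lost their calls without replicate 3 (0.90 and 0.92) or without replicate 3 of either genotype (0.94 to 0.97), so that 3 genes then rose. *CYCB1;2* also lost its call without replicate 2 of both genotypes or of either (0.92 to 0.97). The list summed to 155 to 203 CPM in *pifq* and 93.5 to 98.9 CPM in WT.

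Of 12 stomatal lineage markers 9 were tested, and 4 rose (44.4%) and 1 fell (11.1%), against 6.17% and 4.22% of all genes. *EPF2*, a peptide that limits entry into the lineage, had 4.43, 2.34 and 4.38 CPM in *pifq*, against 0.355, 0.811 and 0.952 CPM in WT (2.34 ± 0.27, adjusted p = 1.99e-07). *POLAR*, a polarity protein of the lineage, had 8.15, 7.47 and 7.6 CPM in *pifq*, against 2.68, 2.88 and 2.89 CPM in WT (1.45 ± 0.15, adjusted p = 1.43e-08). *BASL* (1.34 ± 0.19) and *SDD1* (1.00 ± 0.16) also rose, the last on the limit and lost without replicate 2 of both genotypes or of either, or without *pifq* replicate 3 (0.92 to 0.97). *KAT1*, a potassium channel of guard cells, fell, with 2.76, 2.06 and 1.66 CPM in *pifq*, against 4.88, 5.62 and 6.01 CPM in WT (-1.35 ± 0.18, adjusted p = 1.39e-06). The genotypes did not overlap in these 5 genes. Of the other 4, *TMM*, *MUTE* and *FAMA* stood at 0.72 ± 0.09, 0.50 ± 0.25 and 0.31 ± 0.11, and *MYB60*, a guard-cell MYB, at -0.78 ± 0.27. Outside that list, *FLP* (AT1G14350), a MYB that limits the last division of the lineage, had 2.92, 3.1 and 2.76 CPM in *pifq*, against 11.3, 11.4 and 8.98 CPM in WT (-1.85 ± 0.13, adjusted p = 3.34e-11). The summed level of the list was 51.9 to 63.8 CPM in *pifq* and 35.6 to 41.1 CPM in WT. In each genotype 2 members had 0 reads in all libraries. Markers of other parts of the seedling had no calls. Of 17 root markers 15 were tested and none passed with edgeR or DESeq2. At an unadjusted p under 0.05, 2 were higher (13.3%) and 2 lower (13.3%), against 27.1% and 28.9% of all genes. Root markers summed to 151 to 187 CPM in *pifq* and 175 to 185 CPM in WT. Of 10 shoot apex and epidermis markers 7 were tested and none passed with either tool. By the same unadjusted limit 2 were higher (28.6%) and 3 lower (42.9%). These markers summed to 1465 to 1963 CPM in *pifq* and 1758 to 2157 CPM in WT. The part of tissue composition in the results was not tested.

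Ribosomal protein genes, a list taken from the annotation after the values were seen, shifted by a small and even amount. Of 331 tested nuclear genes whose product names a ribosomal protein, those of plastid ribosomes included, 54 rose (16.3%) and none fell, and 295 were higher (89.1%) and 9 lower (2.72%) at an adjusted p of at most 0.05, against 24.6% and 26.0% of all genes. Their median was 0.76, with quartiles of 0.54 and 0.91. AT4G15000, a ribosomal L27e protein, had 10653, 10921 and 14351 CPM in *pifq*, against 4541, 4929 and 6317 CPM in WT (1.19 ± 0.06, adjusted p = 5.05e-13). *SAC52*, ribosomal protein L10, had 9894, 9376 and 9289 CPM in *pifq*, against 5053, 5347 and 4791 CPM in WT, short of 2-fold (0.91 ± 0.07, adjusted p = 5.07e-11). Both genes had separate genotypes. Most of the list lay below the 2-fold limit, and the count that rose covers only the members that reached it.

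Some of the largest changes fell in genes outside the lists described above. *QQS* (AT3G30720), an orphan gene that affects carbon allocation to starch and protein, had 24.8, 23.1 and 23.4 CPM in *pifq*, against 0.775, 0.471 and 0.654 CPM in WT (5.24 ± 0.15, adjusted p = 8.65e-18). *TLL1* (AT1G45201), a lipase-like gene, had 169, 133 and 148 CPM in *pifq*, against 14.9, 3.61 and 3.48 CPM in WT (4.60 ± 0.41, adjusted p = 1.05e-04). AT4G28780, a GDSL-type lipase, had 103, 67.7 and 85.7 CPM in *pifq*, against 1.39, 1.39 and 1.7 CPM in WT (5.81 ± 0.23, adjusted p = 4.17e-09). The *pifq* libraries were close together for *QQS*, and WT replicate 1 was the highest WT library for *TLL1*. The remaining rises named by rule were AT1G26761 (4.96 ± 0.42), AT3G16660 (4.87 ± 0.41), *MSRB6* (4.41 ± 0.17), a methionine sulfoxide reductase, AT1G23130 (4.28 ± 0.26), *ECS1* (3.88 ± 0.15) and *CYP96A12* (3.29 ± 0.18).

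Among the falls, *FLP1* (AT4G31380), of the flowering-promoting factor family, had 2.63, 1.14 and 2.38 CPM in *pifq*, against 37.7, 52.5 and 63.7 CPM in WT (-4.71 ± 0.27, adjusted p = 1.14e-06). *MYB10* (AT3G12820), a MYB factor, had 3.26, 2.29 and 2.93 CPM in *pifq*, against 38.2, 31.9 and 33.3 CPM in WT (-3.63 ± 0.11, adjusted p = 2.64e-17). AT1G53080, a legume-type lectin, had 0.418, 0.229 and 0.382 CPM in *pifq*, against 3.33, 4.68 and 8.54 CPM in WT (-4.00 ± 0.27, adjusted p = 1.89e-11). Replicate 3 was the highest WT library for *FLP1* and for the lectin gene. Genes below the level set by the rule, chosen after their values were seen, included *COPT3* (AT5G59040), a copper transporter, and AT1G72290, a Kunitz-type protease inhibitor, both with 0 reads in *pifq*. With 342 and 316 reads in WT they were at least 96.1-fold and 88.8-fold lower in *pifq*, on a floor of 3 reads over the *pifq* libraries. *CYP96A5* (AT2G21910), a P450, had 2 reads in *pifq* and 401 in WT, a ratio of 169 in favour of WT with a counting interval of 46.5 to 1400. Over 130 P450 genes tested 21 rose (16.2%) and 14 fell (10.8%), against 6.17% and 4.22% of all genes. Of 62 MYB factors 13 fell (21%) and 5 rose (8.06%). The 5 were *MYB75*, *MYB28*, *MYB16*, *MYB17* and *MYB25*, the last at 1.05 ± 0.21 and lost without replicate 2 or 3, *pifq* replicate 3, or WT replicate 2 or 3 (0.95 to 0.99).

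Heat shock genes had 3 rises (27.3%) and 1 fall (9.09%) among 11 tested, against 6.17% and 4.22% of all genes. *HSP70-4*, a cytosolic chaperone, had 92.3, 101 and 61.1 CPM in *pifq*, against 32.5, 38.3 and 31.2 CPM in WT (1.28 ± 0.12, adjusted p = 3.20e-07). *HSP23.6-MITO* (1.39 ± 0.32) and *HSP17.6A* (1.09 ± 0.34) also rose, and both calls were lost without replicate 3 (1.16 and 0.93, edgeR adjusted p = 0.0948 and 0.276). The *HSP17.6A* call also needed replicate 2, each *pifq* library, and WT replicates 2 and 3 (0.79 to 1.18 without one of them). *HSP22* fell (-1.97 ± 0.35), with separate genotypes. Of 20 clock genes none passed in either direction with edgeR or DESeq2, from *GI* at -0.66 ± 0.11 to *ELF4* at 0.50 ± 0.24, with 2 higher and 9 lower at an unadjusted p under 0.05, against 27.1% and 28.9% of all genes.

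The levels of the leading genes in *pif145* and *pif3* show where *pifq* stood beside the partial mutants, which were fitted together with it. Between *pifq* and *pif145* 344 genes changed (1.87% of genes tested), and between *pifq* and *pif3* 1304 (7.10%). *MYB10* averaged 2.83 ± 0.494 CPM in *pifq* and 30.1 ± 0.665 CPM in *pif145* (SD, n = 3 each), a log2 difference of -3.43 (edgeR adjusted p = 1.76e-16), beside 22.7 ± 3.49 CPM in *pif3* and 34.4 ± 3.31 CPM in WT. *BBX23* averaged 0.313 ± 0.244 CPM in *pifq* and 10.1 ± 3.75 CPM in *pif145* (-5.04, edgeR adjusted p = 3.99e-13), beside 3.8 ± 1.68 CPM in *pif3* and 8.05 ± 2.82 CPM in WT. *OLEO3*, *CLO3*, *FLP1* and *ACS5* were likewise lower in *pifq* than in *pif145*, with log2 differences of -2.16, -3.90, -4.08 and -2.21. *PIL1* averaged 0.443 ± 0.37 CPM in *pifq* and 8.54 ± 3.04 CPM in *pif145* (-4.10, edgeR adjusted p = 6.33e-11), beside 31.2 ± 4.16 CPM in *pif3* and 47.1 ± 10.4 CPM in WT. For these 7 genes *pifq* had the lowest mean of the 4 genotypes. *XTH7* ran the other way, at 217 ± 39.5 CPM in *pifq* and 37.1 ± 13.3 CPM in *pif145* (2.57, edgeR adjusted p = 6.14e-16), beside 14.3 ± 3.67 CPM in *pif3* and 6.1 ± 0.992 CPM in WT.

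Other genes did not differ by the test between *pifq* and *pif145*. *DIN2* averaged 5.2 ± 1.65 CPM in *pifq* and 7.13 ± 2.33 CPM in *pif145* (SD, n = 3 each), and that difference did not pass (-0.42, edgeR adjusted p = 0.345), beside 74.8 ± 15.5 CPM in *pif3* and 109 ± 3.33 CPM in WT. *CRA1* averaged 61.2 ± 24.6 CPM in *pifq* and 52.4 ± 23.6 CPM in *pif145* (0.27, edgeR adjusted p = 0.766), beside 586 ± 180.4 CPM in *pif3* and 637 ± 320.5 CPM in WT. *CHS* averaged 20.3 ± 2.77 CPM in *pifq* and 23 ± 4.48 CPM in *pif145* (-0.16, edgeR adjusted p = 0.593), beside 3.48 ± 0.202 CPM in *pif3* and 5.98 ± 1.69 CPM in WT. A difference that misses the threshold does not show that the 2 mutants were alike.

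**Figure D5:**
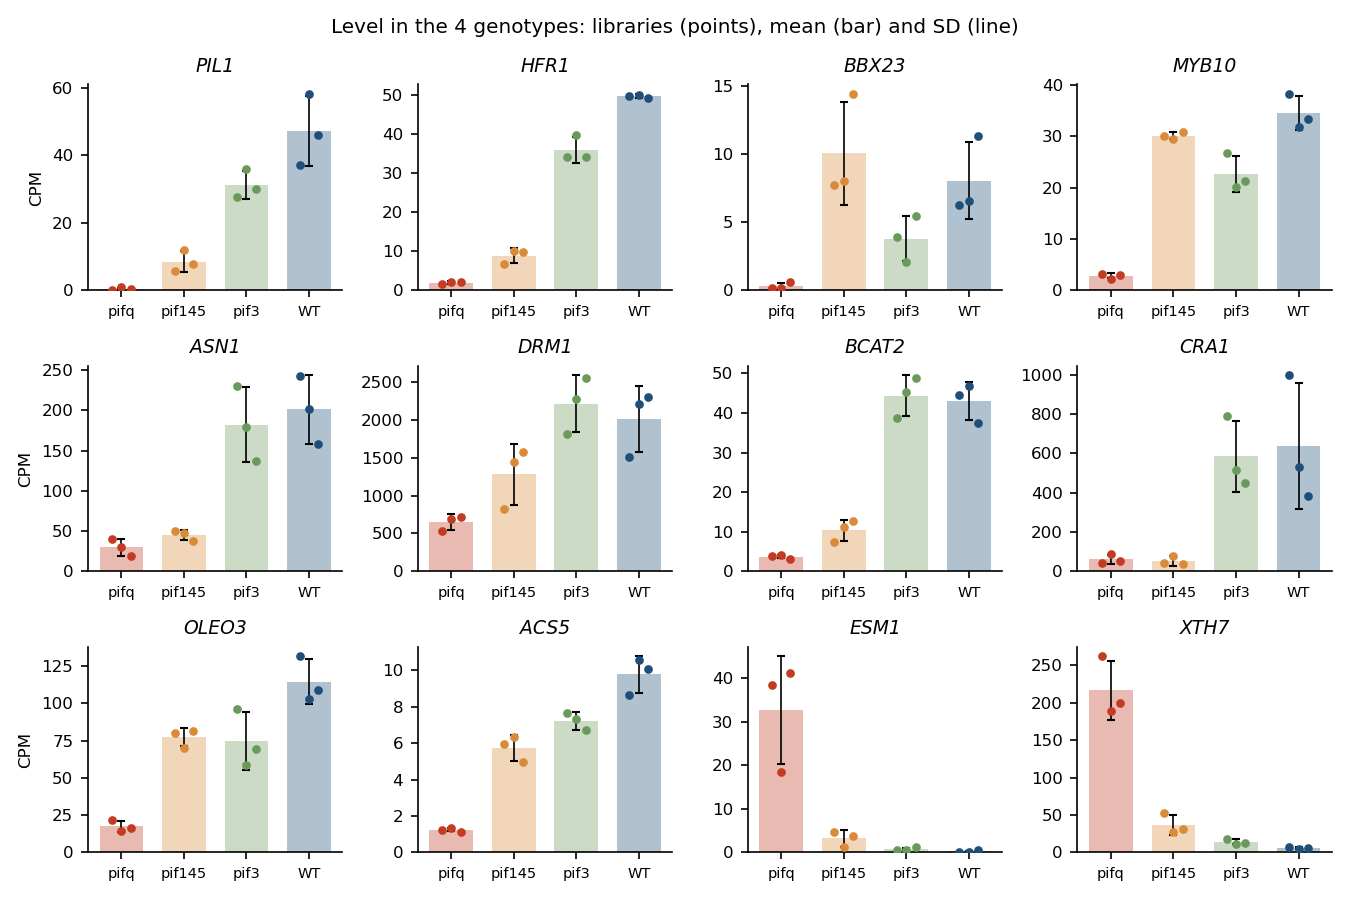
CPM of 12 genes in *pifq*, *pif145*, *pif3* and WT, with each library as a point, the mean as a bar and the SD as a line (n = 3). *MYB10* and *BBX23* are lowest in *pifq*, *CRA1* is low in *pifq* and *pif145*, and *XTH7* reaches 217 CPM in *pifq*.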

How the data were processed

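RNA was taken from whole 2-day-old seedlings, and polyadenylated 3′-end fragments were sequenced with strand kept. Replicate 1 was run on an Illumina GAIIx and replicates 2 and 3 on a HiSeq2000. The deposited values are raw read counts per locus, and the authors kept the first 36 bases of each read and aligned them with Bowtie (0.12.7 in the submitters' processing notes, after CASAVA 1.7.0) with 0 mismatches. They counted only reads unique to the last 500 bases of the coding strand. The methods name the TAIR9 transcripts and the processing notes TAIR10. By that rule reads shared by near-identical copies are left out, although *PGLP1*, which has no distinct 36-base window in the annotation used here, holds reads.

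Of 33602 loci, 32835 (97.7%) were matched to the TAIR10.1 annotation for symbols, positions and sequence. Counts of all 12 libraries were fitted together in edgeR 4.0.16 (R 4.3.3, limma 3.58.1) by the robust quasi-likelihood method, with TMM scaling, filtering by expression, and genotype and replicate number as terms. Benjamini-Hochberg adjustment ran over 18356 genes. The total count was 23907577 to 41247734 reads per library. Deviations from the genotype means correlated at 0.51 to 0.683 in 18 pairs of libraries that share a number, and at -0.495 to -0.00362 in the other pairs, and the study calls the numbers biological replicates. Deviations cancel out within a genotype, so the negative values follow in part from the positive ones and are no separate evidence of pairing. The replicate term was set before the fit. Beyond the sequencing platform, what the replicates shared is not given in the sources used here. The p-values rest on the spread left once genotype and replicate number are fitted. That spread was estimated over all 12 libraries, with 6 residual degrees of freedom. They do not measure the full spread between the *pifq* and WT libraries. The common dispersion was 0.00719 with the replicate term and 0.0572 without it.

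The script was tested on simulated data with known changes. Genes were named by rule: the 4 mutated genes, the 12 largest rises and 12 largest falls outside the antenna list among genes of at least 5 CPM in the higher genotype with separate libraries, and the 4 smallest adjusted p of each of 46 gene lists except the antenna list. Some further genes were chosen after their values were seen. They include *CHS*, *F3H*, *PSAG*, *BCAT2*, *HIS1-3*, *M17*, *CRC*, *ACS8*, *EDF3*, *PIF6* and *ATHB4*, members of the lists, and the members listed by name beside a small count. The comparison, members and lists were chosen with earlier results of these data known. Intervals for few reads are exact 95% intervals of the share of reads. There were 19 alternatives, among them DESeq2 1.42.0.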

Additional observations from a re-analysis of the deposited data

How the results depend on the processing

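The counts of genes that changed, rose or fell stayed within 1.5 times the reported values under 18 of the 19 alternatives. Where at least 5 CPM in 3 libraries was required, 11311 genes were tested and 983 changed, 559 up and 424 down, and 954 of the calls above were among them. Without the replicate block, 1518 genes changed, 903 up and 615 down, and 1502 of the calls above were kept, while the common dispersion was 0.0572, against 0.00719 with it. With no scaling factors 1964 genes changed, 817 up and 1147 down. DESeq2 gave 1870 changed genes, 1125 up and 745 down. Leaving out replicates gave 1696 to 2035 changed genes, 1007 to 1179 up and 689 to 865 down. No gene called above had the opposite sign under any of these alternatives. With no scaling factors the rises of *APR2*, *F3H*, *FBA2*, *IAA34*, *MYB25*, *PCNA1*, *CYCB1;2*, *PKS3*, *PSY*, *SDD1*, *PORC*, *XTH21* and *HSP17.6A* missed the threshold (0.84 to 0.97), and *PHYA*, *PHYB*, *PID*, *TUB1*, *PORA*, *EIN2* and *NSP5* passed as falls (-1.15 to -1.04). Some genes named above were called with the replicate block and not without it. Without it *RAV1* and *CYCB1;2* had values just under 2-fold, and *IAA6*, *IAA34*, AT1G12010, *XTH21*, *SPA4*, *SDD1* and *HSP17.6A* had adjusted p of 0.0564 to 0.258 with edgeR. Depth limits genes such as *PIF7* and *ACS4*, which had too few reads to be tested.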
